A study of Mus musculus with 15 samples.

Results

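RNA was compared between neonatal mouse cardiac myocytes held for 30 min under stretch along the cells (longitudinal) and the same kind of cells held for 30 min under stretch across them (transverse). The comparison took 6 of the 15 libraries of the series, 3 for each axis, and all 12005 genes of the 13657 in the table that reached at least 1 FPKM (fragments scaled by transcript length and sequencing depth) in at least 3 of the 15 libraries, with small RNA entries named Mir, Snora or Snord left out. All cells came from the mouse strain C57BL/6 and were attached to PDMS, an elastic silicone membrane. Both stretch groups received a static biaxial stretch of 14% on the primary axis and 3.6% on the orthogonal one, so they differed in which axis of the cells took the larger strain. The non-stretched control had 3 further devices, and 4 h of stretch on each axis had 3 each. Devices are named A, B and C within a group, and the series describes them as biological replicates; whether the devices shared an isolation of hearts is not stated in the sources used here.

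In the heart, longitudinal strain lengthens the sarcomeres in series and transverse strain pulls the myofibrils apart sideways, and the contacts that bear load differ in position: intercalated discs at the cell ends, costameres along the sides. Stretch of cardiac myocytes is known to activate MAP kinase, calcium and RhoA signalling within minutes. Those signals switch on immediate early genes (Fos, Egr1, Atf3) through transcription factors already present in the cell, among them CREB at the cAMP response element (CRE) and SRF at the CArG box. Genes of load and hypertrophy (Nppb, Ankrd1, Ctgf) answer through SRF with its MRTF cofactors and through YAP with its TEAD partners.

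The promoters of a pair of immediate early genes and a pair of load genes are shown because values of these genes carry the results that follow. Each sequence is the RefSeq window of build GRCm38.p6 from 250 bases before to 50 bases after the gene's start, written 5′ to 3′ on the gene's own strand. Capitals mark the CRE core (TGACGT or its reverse complement ACGTCA) in Fos (chr12:85473640-85473939, plus strand, first base at −66 from the start) and in Atf3 (chr1:191183284-191183583, minus strand, −8). In Nppb (chr4:147985650-147985949, plus strand, −105) and Ankrd1 (chr19:36119795-36120094, minus strand, −210 and −123) capitals mark the TEAD motif (CATTCC or its reverse complement GGAATG). Both motifs were searched on both strands, and neither string overlaps the other.
Fos: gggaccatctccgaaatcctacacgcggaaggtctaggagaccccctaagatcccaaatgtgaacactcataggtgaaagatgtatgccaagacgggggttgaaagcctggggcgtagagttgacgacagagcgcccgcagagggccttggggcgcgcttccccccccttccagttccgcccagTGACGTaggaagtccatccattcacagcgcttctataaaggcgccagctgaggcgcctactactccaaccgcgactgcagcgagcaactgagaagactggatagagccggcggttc
Atf3: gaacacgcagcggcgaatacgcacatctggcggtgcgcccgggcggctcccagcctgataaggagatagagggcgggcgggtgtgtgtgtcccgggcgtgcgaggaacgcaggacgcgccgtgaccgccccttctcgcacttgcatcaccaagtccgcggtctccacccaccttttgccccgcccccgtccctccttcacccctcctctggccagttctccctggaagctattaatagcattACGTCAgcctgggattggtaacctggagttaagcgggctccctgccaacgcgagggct
Nppb: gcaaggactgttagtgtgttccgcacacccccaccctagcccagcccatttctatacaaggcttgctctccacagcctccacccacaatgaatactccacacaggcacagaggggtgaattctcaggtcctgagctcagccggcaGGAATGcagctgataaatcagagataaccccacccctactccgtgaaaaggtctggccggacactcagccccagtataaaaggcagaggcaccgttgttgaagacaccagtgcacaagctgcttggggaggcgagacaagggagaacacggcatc
Ankrd1: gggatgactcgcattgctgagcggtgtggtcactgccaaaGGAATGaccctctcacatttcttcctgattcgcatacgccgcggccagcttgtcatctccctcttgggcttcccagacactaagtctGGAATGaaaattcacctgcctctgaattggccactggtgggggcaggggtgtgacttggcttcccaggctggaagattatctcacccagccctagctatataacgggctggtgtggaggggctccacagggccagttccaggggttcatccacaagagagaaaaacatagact

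Of all 27025 genes with such a window, tested here or not, 8.37% held a CRE core, 16.6% a TEAD motif and 1.81% a CArG box. The lists that follow hold tested genes only, so the 2 kinds of share come from unlike sets. Among 24 of the 30 tested immediate early transcription factor genes that had a window, 7 (29.2%) held the CRE core, 4 (16.7%) the TEAD motif and 3 (12.5%) the CArG box. Among 17 of 21 YAP/TEAD target genes with a window, 8 (47.1%) held the TEAD motif, 3 (17.6%) the CRE core and 0 the CArG box. Among 21 of 25 cytoskeletal SRF and MRTF target genes, 9 (42.9%) held the TEAD motif, 8 (38.1%) the CArG box and 1 (4.76%) the CRE core. A match describes letters in the window and is not a bound site.

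No gene was called different between the axes after 30 min. In limma, 0 of 12005 genes (0%) passed an adjusted p of 0.05, and the smallest adjusted p was 0.810. At an unadjusted p under 0.05 there were 642 genes (5.35%), of which 475 were higher in the longitudinal devices and 167 lower. All 3 longitudinal values lay above all 3 transverse values for 718 genes (5.98%) and below them for 391 (3.26%). For a single gene, an exact two-sided permutation test of 3 devices against 3 cannot give a p below 0.1.

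The size of difference that these data allow was narrow for most genes. The median log2 difference over all genes, longitudinal minus transverse, was 0.02, and 56.8% of genes were higher by value in the longitudinal devices. The 95% confidence interval of the difference lay within 2-fold in either direction for 11718 genes (97.6%) and within 1.5-fold for 10745 genes (89.5%). All log2 differences were taken on log2(FPKM + 1), and the added 1 shrinks the differences of genes with low values. The count of called genes stayed at 0 without any 1 library except transverse A, without which 1 gene was called. That gene was Rps27, a ribosomal protein gene of many near-identical copies whose FPKM is therefore uncertain: it stood at 2.52, 4.02 and 3.72 FPKM in longitudinal devices A, B and C, and at 3.36, 66.8 and 50.2 FPKM in transverse devices A, B and C.

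The 6 libraries did not separate by axis. The first principal component of log2(FPKM + 1) over the 6 held 69.0% of the variance, with scores of −0.749, −4.79 and 21.7 for longitudinal A, B and C and −10.1, 19.7 and −25.8 for transverse A, B and C. Longitudinal C correlated best with transverse B across genes (r = 0.996), and longitudinal B with transverse A (r = 0.997). Correlations within an axis spanned 0.990 to 0.995 for longitudinal pairs and 0.973 to 0.992 for transverse pairs, against 0.970 to 0.997 for pairs of different axes. Transverse B and longitudinal C thus stand apart from their own groups. The device labels were kept as given; whether labels of these devices were exchanged was not tested, and every difference between the axes depends on them. List medians that moved by over 1.5 times without both devices, and differences of load genes, are also given without both, an alternative chosen after the data were seen. Relative depth, from the step that 1 read makes in the lowest FPKM values, was 0.829 to 0.934 of the deepest library in the longitudinal devices and 0.671 to 1 in the transverse ones, lowest in transverse B.

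Cardiac myocyte markers were present in every library: the summed FPKM of 6 markers was 11807, 11521 and 15128 in longitudinal devices A, B and C, 11593, 14969 and 10519 in transverse ones, and 13270, 10581 and 12949 in the control. Tnnt2 and Actc1, also on that list, are not analysed here. Other cell types were there too. The 10 fibroblast markers summed to between 2133 and 2421 FPKM in longitudinal devices, between 2050 and 2437 in transverse ones, and between 2197 and 2742 in the control, and none was at 0. The 9 macrophage and leukocyte markers in the table summed to between 376 and 466 FPKM in longitudinal devices and between 370 and 415 in transverse ones, and the 10 endothelial markers to between 38.9 and 48.6 FPKM in longitudinal devices and between 32.3 and 46.9 in transverse ones. None of the 6 erythroid markers is in the rows used here. In such bulk RNA, fewer cells of a type and less RNA per cell cannot be told apart.

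Immediate early transcription factors were higher by value under longitudinal stretch in 29 of 30 genes tested, against 56.8% of all genes. Their median log2 difference was 0.36, against 0.02 over all genes. None of the 30 was called, and 8 had an unadjusted p under 0.05 in limma, against 5.35% of all genes. In 6 (Fos, Fosl1, Klf6, Ier2, Myc and Zfp36) the longitudinal values lay wholly above the transverse ones, against 5.98% of all genes. Leaving out transverse B and longitudinal C left the median at 0.38. The 31st gene of the list, Egr4, is not among the rows used here.

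Fos, which pairs with Jun proteins to form AP-1 (mm9 chromosome 12, 86814851 to 86818219), stood at 81.9, 89.2 and 75.2 FPKM in longitudinal devices A, B and C, at 70.6, 56.0 and 65.0 FPKM in transverse devices A, B and C, and at 3.30, 3.04 and 2.32 FPKM in the control. Every longitudinal device was above every transverse one, and both groups were far above the control. The log2 difference between the axes was 0.36 ± 0.16 (SE) with a 95% interval of 0.004 to 0.72 and an adjusted p of 0.810 in limma.

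Ier2, a short nuclear regulator (mm9 chromosome 8, 87185230 to 87186751), had longitudinal values that were close to one another: 75.4, 77.3 and 76.7 FPKM in longitudinal devices, against 64.8, 54.5 and 62.3 FPKM in transverse devices and 12.5, 11.1 and 11.6 FPKM in the control. The groups did not overlap, and the difference was 0.34 on the log2 scale (95% interval 0.12 to 0.55). Atf3, a stress-induced repressor of the CREB family (mm9 chromosome 1, 192994176 to 193007212), was at 59.7, 91.8 and 113 FPKM in longitudinal devices and at 52.3, 68.3 and 37.9 FPKM in transverse ones, against 12.0, 5.10 and 6.68 FPKM in the control. Its groups overlapped through longitudinal A and transverse B, and its interval ran from −0.05 to 1.496 around 0.72.

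Egr1, a zinc finger transcription factor of mitogen and stretch responses, was at 229, 242 and 225 FPKM in longitudinal devices, at 235, 154 and 201 FPKM in transverse ones and at 18.6, 17.2 and 14.9 FPKM in the control. Transverse A lay inside the longitudinal range and the difference was 0.26 (95% interval −0.09 to 0.61). Jun, a partner of Fos, was the only member lower by value under longitudinal stretch, at 65.8, 112 and 89.7 FPKM in longitudinal devices, against 105, 72.5 and 97.1 FPKM in transverse ones, a difference of −0.05 (−0.56 to 0.46). Myc, a growth-promoting transcription factor, did not overlap: 11.4, 11.2 and 12.8 FPKM in longitudinal devices, 8.37, 10.3 and 6.603 FPKM in transverse ones and 4.81, 3.18 and 4.14 FPKM in the control.

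**Figure D1:**
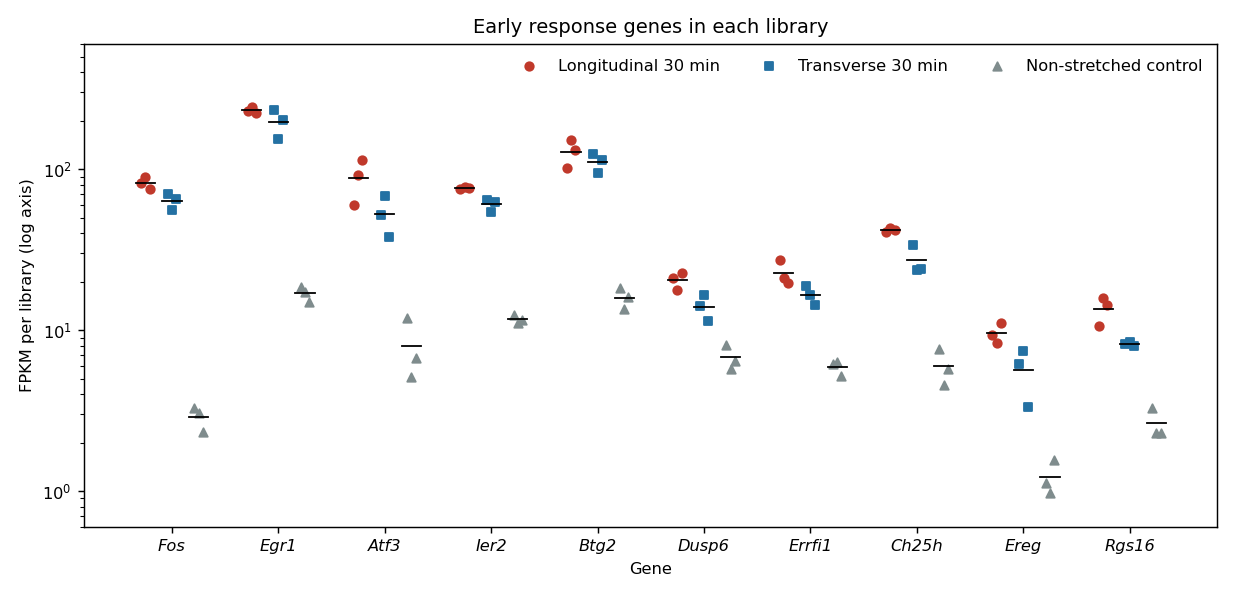
FPKM per library on a log axis for 10 early response genes, with longitudinal devices (red circles), transverse devices (blue squares) and the non-stretched control (grey triangles); each symbol is 1 library and each bar a group mean. Both stretch groups sit above the control for all 10 genes, while the distance between the axes is small, as for Ier2 with means of 76.5 FPKM in longitudinal and 60.5 FPKM in transverse devices.

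The same genes give the scale of the stretch response itself. Against the 3 controls, limma called 46 genes higher (0.383%) and 4 lower (0.0333%) under longitudinal stretch, and 32 genes higher (0.267%) and 1 lower (0.00833%) under transverse stretch. These comparisons share the controls, so their values are only set side by side. Immediate early factors made up 17 of the called genes under longitudinal stretch, where the list had a median log2 of 1.44 against the control, and 14 under transverse stretch, where its median was 1.04; all these called members rose. Over all genes the median was 0.01 under longitudinal and −0.01 under transverse stretch.

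Fos rose by 4.42 on the log2 scale under longitudinal stretch and by 4.06 under transverse stretch (limma, adjusted p = 9.59e-09 and 4.31e-08). Egr1 rose by 3.71 under longitudinal and by 3.45 under transverse stretch (limma, adjusted p = 4.75e-08 and 1.16e-07), and Atf3 by 3.35 under longitudinal and by 2.63 under transverse stretch (adjusted p = 0.000305 and 0.00415). Myc passed the limma test under longitudinal stretch (1.35, adjusted p = 0.00854) and did not under transverse stretch (0.90, adjusted p = 0.226), but its difference between the axes was not called either (adjusted p = 0.81), so the axes are not shown to differ. Lif and Thbs1 have the same pattern and are described below.

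The next list holds genes that end the early signal. Of the 18 feedback inhibitors tested, 17 were higher by value in longitudinal devices, against 56.8% of all genes. Their median log2 was 0.18, and 0.31 without transverse B and longitudinal C, and 0 were called. Dusp6, a phosphatase that removes activating phosphates from ERK (mm9 chromosome 10, 98725865 to 98730123), stood at 21.2, 17.9 and 22.7 FPKM in longitudinal devices, at 14.2, 16.5 and 11.3 FPKM in transverse ones and at 8.13, 5.72 and 6.46 FPKM in the control. Errfi1, an inhibitor of the EGF receptor kinase, stood at 27.3, 21.0 and 19.6 FPKM in longitudinal devices, against 18.8, 16.5 and 14.4 FPKM in transverse devices and 6.15, 6.36 and 5.21 FPKM in the control.

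Both genes kept their groups apart, with differences of 0.53 for Dusp6 (95% interval 0.19 to 0.87) and 0.42 for Errfi1 (0.13 to 0.71). Dusp1, which acts on p38 and JNK, was level between the axes by comparison: 46.7, 51.4 and 59.3 FPKM in longitudinal devices, 46.4, 53.1 and 52.7 FPKM in transverse ones and 16.2, 15.5 and 15.5 FPKM in the control. Its difference was 0.04 with an interval of −0.21 to 0.30, and its sign changes with the libraries used. The only member lower by value in longitudinal devices was Dusp7 (−0.06, −0.40 to 0.29). Against the control, 6 of the 18 were called higher under longitudinal stretch and 5 under transverse stretch, beside 0.383% and 0.267% of all genes.

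Rgs16, a GTPase-activating protein that shortens G protein signals (mm9 chromosome 1, 155587483 to 155592598), had the smallest unadjusted p of the genes averaging at least 5 FPKM in either axis group whose groups were apart, and was named for it. Its values were 10.6, 15.8 and 14.4 FPKM in longitudinal devices A, B and C, and 8.16, 8.48 and 7.94 FPKM in transverse devices A, B and C, with the control at 3.29, 2.31 and 2.30 FPKM. The lowest longitudinal device lay above the highest transverse one, and the transverse devices were nearly equal. The difference was 0.65 ± 0.13 (SE) with a 95% interval of 0.37 to 0.93 and an unadjusted p of 0.000233, which became 0.81 after limma's adjustment over all genes. Rgs16 rose against the control by 2.0 under longitudinal stretch and by 1.35 under transverse stretch (limma, adjusted p = 2.17e-06 and 0.000157).

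Several other genes were named for a small unadjusted p. Kctd17, which encodes a BTB domain protein, stood at 12.6, 12.5 and 12.7 FPKM in longitudinal devices, at 10.4, 10.4 and 10.4 FPKM in transverse ones and at 10.97, 12.1 and 12.1 FPKM in the control, a difference of 0.25 (0.14 to 0.37). Tmod3, a cap of actin filament pointed ends, stood at 16.1, 14.7 and 14.9 FPKM in longitudinal devices, against 12.6, 13.2 and 11.1 FPKM in transverse devices (0.29, 0.13 to 0.44), and Scin, which severs actin filaments, differed by 0.48 (0.21 to 0.74). Each had a spread within groups that was small beside the difference. Isg15, an interferon-induced protein, had the largest difference, 0.79, of the genes averaging at least 5 FPKM in either group that were apart and higher in longitudinal devices, but its interval of −0.39 to 1.97 was wide. Its 30 min values were 14.0, 8.80 and 13.3 FPKM in longitudinal devices and 6.51, 6.39 and 6.30 FPKM in transverse ones. The interval rests on the spread of all 15 libraries, where transverse 4 h A, B and C stood at 36.2, 5.16 and 4.40 FPKM.

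Secreted signals and a lipid enzyme were among the genes of larger difference whose groups were apart. Ch25h, which makes the oxysterol 25-hydroxycholesterol (mm9 chromosome 19, 34548274 to 34549625), stood at 40.7, 43.4 and 42.1 FPKM in longitudinal devices, at 34.1, 23.6 and 24.1 FPKM in transverse ones and at 7.59, 4.54 and 5.74 FPKM in the control. Ereg, an EGF receptor ligand (mm9 chromosome 5, 91503643 to 91522675), stood at 9.33, 8.31 and 11.1 FPKM in longitudinal devices, against 6.17, 7.42 and 3.31 FPKM in transverse devices and 1.13, 0.972 and 1.57 FPKM in the control. Lif, a cytokine that signals through gp130, stood at 2.69, 2.554 and 3.27 FPKM in longitudinal devices, against 1.34, 2.545 and 1.14 FPKM in transverse devices and 0.617, 0.313 and 0.555 FPKM in the control.

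The groups stayed apart in each, for Lif by less than 0.01 FPKM between longitudinal B and transverse B. The log2 differences were 0.63 (0.23 to 1.03) for Ch25h, 0.72 (0.18 to 1.26) for Ereg and 0.55 (0.19 to 0.92) for Lif, and none was called in limma (adjusted p = 0.81 each). Lif rose against the control under longitudinal stretch (1.36, adjusted p = 0.00112 in limma), while under transverse stretch the value was 0.81 (adjusted p = 0.115). Ptgs2, the inducible cyclooxygenase, overlapped: 10.9, 12.1 and 12.4 FPKM in longitudinal devices against 9.46, 12.2 and 3.88 FPKM in transverse ones and 1.04, 0.835 and 0.993 FPKM in the control.

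In these lists, the 8 prostaglandin and oxysterol enzymes had a median of 0.28, with 2 apart (Ch25h and Ptges). The 27 secreted cytokines, chemokines and growth factors had a median of 0.18, with Lif as the 1 gene apart, and the 8 EGF family ligands and receptors one of 0.09, with Ereg and Nrg1 apart. Over all genes, 5.98% were apart with longitudinal values higher. Neither ErbB receptor genes nor Egfr stood apart: Egfr was at 3.09, 2.90 and 2.11 FPKM in longitudinal devices and at 2.69, 2.37 and 3.40 FPKM in transverse ones.

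In the list of 32 matrix genes, 7 had longitudinal values wholly above the transverse ones, against 5.98% of all genes, and 0 wholly below, against 3.26%. The 7 were Thbs1, Timp1, Timp3, Col6a1, Col6a2, Spp1 and Adamts4. The list median was 0.13, and 26 of the 32 were higher by value, against 56.8% of all genes. Col14a1 and Ogn, matrix genes that are not on the list, were apart and lower in longitudinal devices, with values given further on. Thbs1, a matricellular glycoprotein that activates TGF-beta (mm9 chromosome 2, 117937658 to 117952869), stood at 343, 340.4 and 468 FPKM in longitudinal devices, at 251, 336 and 189 FPKM in transverse ones and at 169, 137 and 172 FPKM in the control. Timp1, an inhibitor of matrix metalloproteinases, stood at 158, 139 and 137 FPKM in longitudinal devices, against 123, 95.9 and 74.2 FPKM in transverse devices and 89.1, 107 and 102 FPKM in the control.

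The difference was 0.59 (0.15 to 1.03) for Thbs1 and for Timp1. Thbs1 rose against the control under longitudinal stretch (1.255, adjusted p = 0.0126 in limma), while under transverse stretch the value was 0.66 (adjusted p = 0.734). Timp1's entry in the table overlaps Syn1 and Araf, and reads of overlapping genes cannot be told apart without strand. Col1a1, a chain of the fibrillar collagen I, overlapped between the axes and stood at 666, 753 and 823 FPKM in longitudinal devices and at 789, 726 and 744 FPKM in transverse ones, a difference of −0.02 (−0.21 to 0.18). Fibroblast marker sums overlapped between the axes, as given above.

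Lower values under longitudinal stretch were fewer and mostly small. Gab1, a docking protein of receptor tyrosine kinase signalling (mm9 chromosome 8, 83288333 to 83404378), stood at 22.3, 23.1 and 23.1 FPKM in longitudinal devices, at 25.8, 26.0 and 27.2 FPKM in transverse ones and at 22.1, 22.6 and 23.2 FPKM in the control. Zfpm1, a cofactor of GATA factors also called FOG-1, stood at 12.1, 12.1 and 12.0 FPKM in longitudinal devices, against 16.1, 14.5 and 16.5 FPKM in transverse devices and 12.6, 15.2 and 15.8 FPKM in the control. For Gab1 it was the transverse devices that lay away from the control values, and for Zfpm1 the longitudinal ones.

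The differences were −0.20 (−0.30 to −0.10) for Gab1 and −0.35 (−0.54 to −0.16) for Zfpm1, again without a call (limma, adjusted p = 0.81). Among matrix genes outside the list, Col14a1, a collagen bound to the surface of fibrils, stood at 11.1, 12.0 and 12.0 FPKM in longitudinal devices, at 15.02, 16.3 and 21.0 FPKM in transverse ones and at 18.9, 19.3 and 19.2 FPKM in the control, a difference of −0.53 (−0.88 to −0.18). Ogn, a small leucine-rich proteoglycan, was at 8.20, 6.76 and 5.32 FPKM in longitudinal devices, against 8.57, 13.4 and 21.7 FPKM in transverse devices, with an interval of −1.63 to −0.23, but its entry overlaps Aspn, Cenpp, Ecm2 and Omd.

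LOC100302567 had the largest difference by size, −4.55, with 0.500, 0 and 0 FPKM in longitudinal devices, 28.1, 20.9 and 29.1 FPKM in transverse ones and 0, 0 and 15.7 FPKM in the control. RefSeq names this entry as a small nucleolar RNA, a class that poly(A) selection does not target, and its entry overlaps Rps16. It was called only when the fit held the 6 libraries alone.

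**Figure D2:**
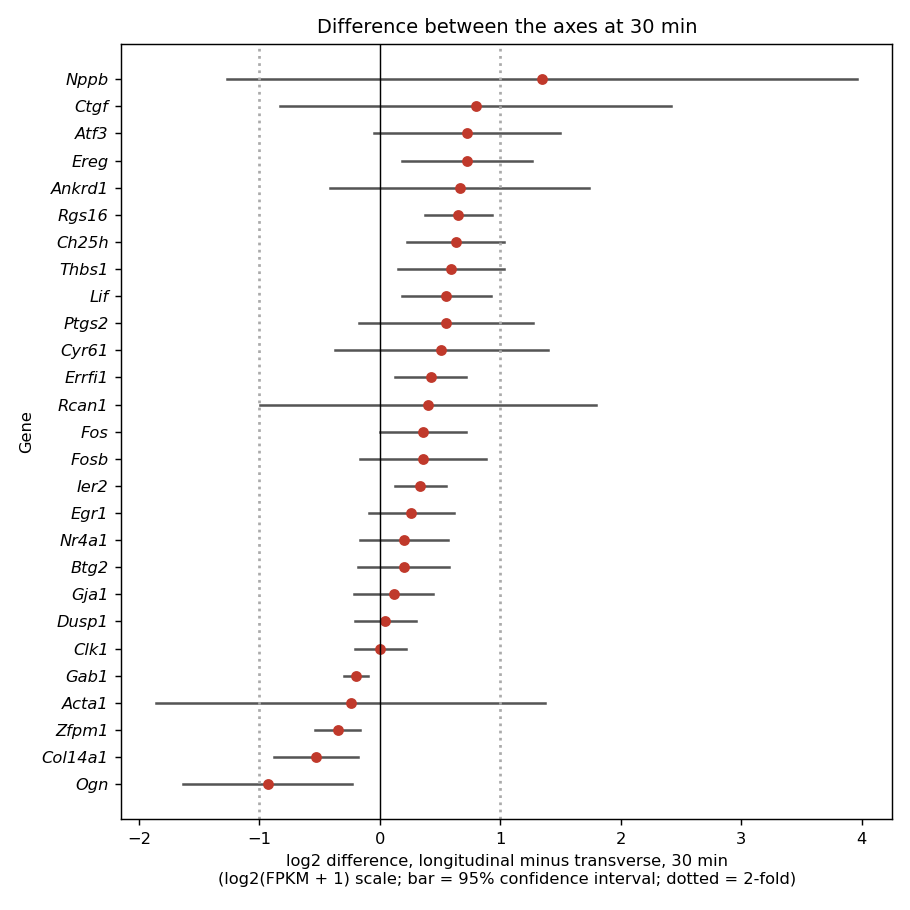
Log2 difference at 30 min, longitudinal minus transverse, for 27 genes (points) with 95% confidence intervals from limma (bars); the solid line marks no difference and the dotted lines 2-fold either way. Ier2 (0.12 to 0.55) has a narrow interval and Nppb (−1.27 to 3.96) a wide one. Those of other induced genes, such as Atf3 (−0.05 to 1.496) and Cyr61 (−0.38 to 1.39), lie between in width.

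Genes of load and hypertrophy spread widely between devices of the same axis. Nppb, which encodes B-type natriuretic peptide (mm9 chromosome 4, 147359898 to 147361314), stood at 956, 578 and 3110.3 FPKM in longitudinal devices A, B and C, at 267, 3455 and 112 FPKM in transverse devices A, B and C, and at 511, 45.9 and 289 FPKM in the control. Longitudinal C and transverse B were high, the other 4 lower, and the control itself spread widely. The difference was 1.35 with an interval of −1.27 to 3.96, which allows large differences in either direction; without longitudinal C and transverse B it was 2.10 (−0.23 to 4.42).

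Among the genes averaging at least 5 FPKM in either axis group, the 20 with the widest spread within the axes were listed after their values were seen. Their SD within groups ran from 1.13 to 2.02 on the log2 scale. In 18 of them transverse B and longitudinal C were both the highest of their 3 devices, which held for 27.8% of all genes, and in 1, Efnb3, both were the lowest, which held for 26.8%. The 20th is Rps27. None of the 20 had groups that were apart. Choice by spread within the axes favours genes in which transverse B and longitudinal C are extreme, and groups that overlap. These counts therefore describe the choice and are no separate finding about the genes.

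**Figure D3:**
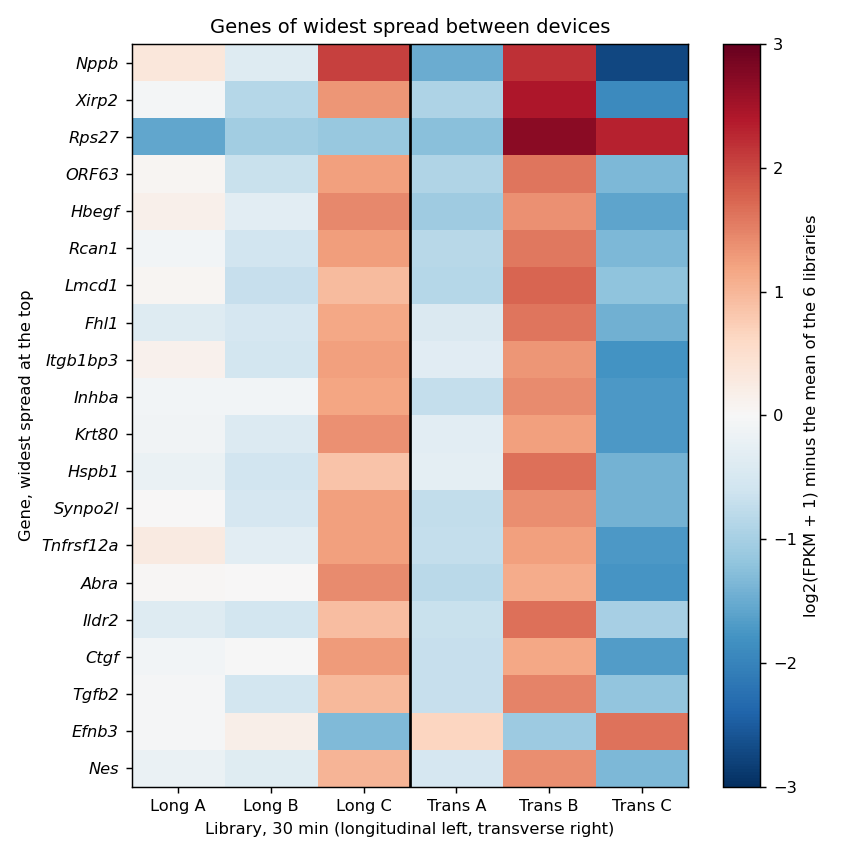
Heat map of log2(FPKM + 1) minus the mean of the 6 libraries, for the 20 genes of widest spread within the axes (rows, widest at the top) in longitudinal devices (left) and transverse devices (right). Long C and Trans B are red for nearly all rows, including Nppb with 3110.3 FPKM in Long C and 3455 FPKM in Trans B, and Efnb3 is blue in both.

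Xirp2, an actin-binding protein of the intercalated disc, was at 45.6, 26.2 and 122 FPKM in longitudinal devices and at 24.6, 263 and 11.9 FPKM in transverse ones. Rcan1, the calcineurin inhibitor whose transcription calcineurin itself drives, was at 91.2, 64.5 and 231 FPKM in longitudinal devices, at 54.0, 291 and 37.1 FPKM in transverse ones and at 50.6, 36.6 and 52.9 FPKM in the control. Csrp3, the muscle LIM protein of the Z-disc, was at 1124, 888 and 2331 FPKM in longitudinal devices and at 891, 3148 and 518 FPKM in transverse ones.

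In all 3, longitudinal C and transverse B were the highest and transverse C the lowest. The difference was 0.28 for Xirp2, 0.40 for Rcan1 and 0.23 for Csrp3, and without longitudinal C and transverse B it was 0.97 for Xirp2, 0.76 for Rcan1 and 0.56 for Csrp3, with an interval that included 0 in each. Hbegf, an EGF receptor ligand shed from the membrane, was at 50.6, 36.1 and 125 FPKM in longitudinal devices and at 21.0, 119.6 and 14.4 FPKM in transverse ones. Hspb1, a small heat shock protein that binds actin, was at 516, 399 and 1075 FPKM in longitudinal devices and at 483, 1874 and 221 FPKM in transverse ones. Efnb3, a membrane-bound ligand of Eph receptors, ran the other way: 17.2, 20.1 and 6.47 FPKM in longitudinal devices against 28.3, 7.80 and 56.7 FPKM in transverse ones. Without both devices the difference was 1.25 for Hbegf (0.85 with them), 0.47 for Hspb1 (0.05 with them) and −1.07 for Efnb3 (−0.79 with them).

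SRF and MRTF targets of the cytoskeleton moved with the same devices. Of the 25 tested, 22 had transverse B and longitudinal C both highest, against 27.8% of all genes. The median SD within groups was 0.44, against 0.12 over all genes. The list was higher by value in longitudinal devices in 22 of 25 genes, against 56.8% of all genes. Its median was 0.27, and 0.38 without those devices, with 0 called and 0 whose groups were apart. Actg1, cytoplasmic gamma actin, was at 525, 498 and 656 FPKM in longitudinal devices, at 398, 537 and 344 FPKM in transverse ones and at 382, 275 and 353 FPKM in the control, a difference of 0.41 (0.01 to 0.81).

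Abra, which promotes MRTF entry into the nucleus, was at 26.8, 26.2 and 71.4 FPKM in longitudinal devices, at 14.6, 58.2 and 6.99 FPKM in transverse ones and at 6.25, 2.07 and 4.78 FPKM in the control. All 6 stretched devices exceeded all 3 controls, yet no comparison called it: the difference between the axes was 0.97 (−0.54 to 2.47), and 1.30 without longitudinal C and transverse B. Acta1, skeletal alpha actin, was lower by value under longitudinal stretch, at 90.0, 132 and 380.2 FPKM in longitudinal devices, against 229, 396 and 82.8 FPKM in transverse ones (−0.24, −1.86 to 1.37, and −0.34 without longitudinal C and transverse B), and the sign of its difference turned without longitudinal A (0.19) or transverse B (0.26).

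Smooth muscle and pericyte markers, which include the SRF targets Acta2, Tagln and Cnn1, moved with these devices too. The sum of all 8 was 824, 870 and 1631 FPKM in longitudinal devices A, B and C, 752, 1316 and 451 FPKM in transverse devices A, B and C, and 781, 521 and 841 FPKM in the control, with none at 0. Their part in the results of the SRF list was not tested.

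YAP/TEAD targets had a median of 0.07 over 21 genes (0.14 without transverse B and longitudinal C), with 0 called and 0 apart. In 16 of the 21 both of those devices were the highest of their 3, against 27.8% of all genes. Ctgf, a matricellular protein of the CCN family, stood at 579.9, 611 and 1502 FPKM in longitudinal devices, at 382, 1381 and 192 FPKM in transverse ones and at 302, 58.2 and 217 FPKM in the control. Cyr61, its relative (mm9 chromosome 3, 145309935 to 145312949), stood at 299, 402 and 603 FPKM in longitudinal devices, against 278, 448 and 202 FPKM in transverse devices and 53.4, 26.6 and 57.5 FPKM in the control. The spread within the axes was narrower for Cyr61 than for Ctgf.

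Cyr61 was the 1 member called against the control on either axis, rising by 3.23 under longitudinal stretch and by 2.73 under transverse stretch (limma, adjusted p = 0.00131 and 0.00895). Its difference between the axes was 0.51 (−0.38 to 1.39) and that of Ctgf 0.79 (−0.83 to 2.42), and without both devices 0.55 for Cyr61 and 1.13 for Ctgf. Ankrd1, a titin-binding repeat protein of the sarcomere, was at 2828, 2802 and 4834 FPKM in longitudinal devices, at 1860.4, 4635 and 1118 FPKM in transverse ones and at 3609.6, 1097 and 2374 FPKM in the control. The highest control lay above 4 of the 6 stretched devices, and longitudinal C and transverse B lay above every control. Its difference was 0.66 (−0.41 to 1.74), and 0.96 without both of those devices.

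Structural genes of the myocyte had list medians near that of all genes. The 17 sarcomere genes had a median of 0.04 (0.07 without transverse B and longitudinal C), with Myom2 the 1 member apart, lower by value under longitudinal stretch (128, 127 and 132 FPKM in longitudinal devices, against 134, 143 and 162 FPKM in transverse ones). All 17 had an interval within 2-fold, as did 97.6% of all genes. Intercalated disc junction genes had a median of −0.05 over 17 genes (−0.03 without those devices), with Jup and Ctnna3 apart and lower. Over all genes, 3.26% were apart with longitudinal values lower.

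Jup, the desmosomal protein plakoglobin, was at 66.1, 69.9 and 70.3 FPKM in longitudinal devices and at 76.9, 79.9 and 76.3 FPKM in transverse ones, with the control at 64.0, 70.1 and 76.4 FPKM. Gja1, the gap junction protein connexin 43, overlapped: 461, 436 and 396 FPKM in longitudinal devices against 379.7, 371 and 446 FPKM in transverse ones, a difference of 0.11 (−0.21 to 0.44). The 30 integrin, focal adhesion and costamere genes had a median of 0.08 (0.15 without transverse B and longitudinal C), with none apart. In 22 of them both of those devices were the highest of their 3, against 27.8% of all genes. Their intervals lay within 2-fold for 28 of 30, against 97.6% of all genes.

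Of 20 ion channel genes, the median was −0.05 (−0.09 without transverse B and longitudinal C). The 1 gene apart was Kcnj11, which was lower by value in longitudinal devices (−0.11, −0.30 to 0.07), against 3.26% of all genes apart and lower. Kcnk2, the stretch-activated potassium channel TREK-1, was at 1.79, 1.65 and 3.73 FPKM in longitudinal devices and at 1.20, 1.83 and 0.821 FPKM in transverse ones (0.54, 0.08 to 1.0). Cacna1c, the L-type calcium channel, went the other way by value, at 30.2, 37.6 and 31.3 FPKM in longitudinal devices, against 38.2, 34.1 and 49.8 FPKM in transverse devices (−0.28, −0.59 to 0.03), and its entry overlaps Dcp1b. Both overlapped between the axes. Ryr2, the calcium release channel, stood at 49.996, 62.9 and 54.1 FPKM in longitudinal devices, against 62.2, 60.8 and 84.3 FPKM in transverse ones (−0.30, −0.59 to −0.01), while the 18 calcium handling genes as a list had a median of 0.11.

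The 20 Clk kinases and splicing factors had a median of 0.05 (0.09 without transverse B and longitudinal C), with 0 called. By value 14 were higher, against 56.8% of all genes. All 20 intervals lay within 2-fold, as for 97.6% of all genes. Tra2a and Srsf10 were apart and higher in longitudinal devices, against 5.98% of all genes, and Rbm20 was apart and lower, against 3.26%. Tra2a, a splicing activator, differed by 0.14 (0.02 to 0.26), Tra2b, its relative, by 0.27 (−0.01 to 0.55) and Clk2 by −0.16 (−0.31 to −0.01). Clk1, a kinase of SR splicing factors, was at 12.3, 14.5 and 11.4 FPKM in longitudinal devices, at 12.8, 12.3 and 12.9 FPKM in transverse ones and at 22.3, 21.2 and 21.7 FPKM in the control. Both groups lay well below the control, and Clk1 fell by 0.74 under either axis (limma, adjusted p = 0.00186 for longitudinal and 0.0029 for transverse). The difference between the axes was 0.002 with an interval of −0.21 to 0.21. Srsf6, an SR protein, had an interval of −0.09 to 0.11, at 36.5, 36.7 and 36.9 FPKM in longitudinal devices and 36.6, 36.7 and 36.1 FPKM in transverse ones.

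DNA replication and mitosis genes were higher by value in 23 of 24 in longitudinal devices, against 56.8% of all genes. Their median was 0.16 (0.10 without transverse B and longitudinal C), with 0 apart and 0 called. Heat shock proteins and cochaperones had a median of 0.02, which became 0.22 without transverse B and longitudinal C. Hspa1a stood at 4.49, 4.11 and 6.17 FPKM in longitudinal devices A, B and C, and at 3.90, 16.7 and 3.09 FPKM in transverse devices A, B and C, with transverse B the highest. Hspa1a and Hspa1b are near-identical copies, so their separate values are uncertain.

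**Figure D4:**
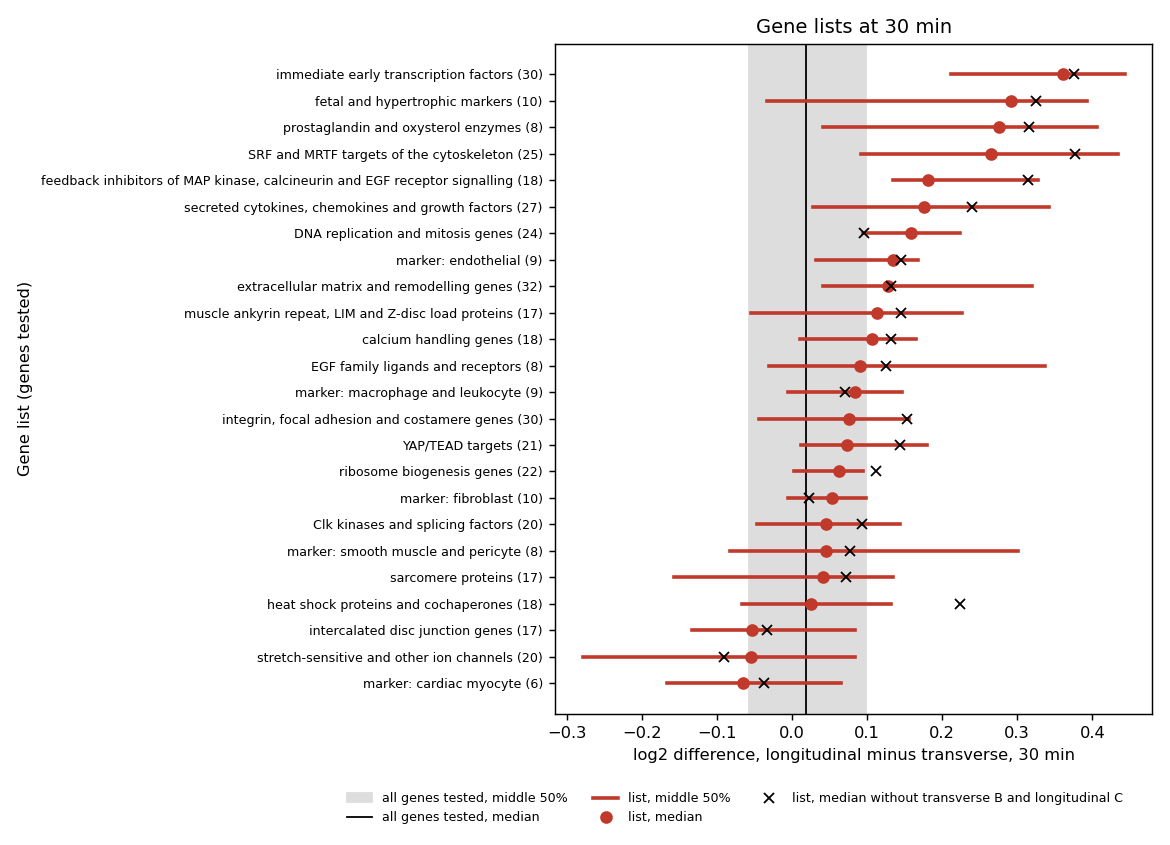
Median log2 difference at 30 min, longitudinal minus transverse, of each gene list (red points, with the number of genes tested in brackets), the middle 50% of its genes (red bars) and the median without transverse B and longitudinal C (crosses); the grey band and black line give the middle 50% and median of all 12005 genes. Immediate early transcription factors lie farthest right, at 0.36, and the cardiac myocyte markers and ion channels farthest left.

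The 4 h devices give the same comparison at a later time; their libraries were part of the fit that gave the spread behind the 30 min intervals. After 4 h, limma called 1 gene higher in longitudinal than in transverse devices (0.00833%), Gm8615, and 0 lower, with 3117 genes at an unadjusted p under 0.05. The number called at 4 h changed with the libraries in the fit: it was 173 without transverse 30 min B, 3 without transverse 30 min C or longitudinal 4 h A, and 2 without longitudinal 4 h B. Across the 12005 genes the axis difference at 30 min and that at 4 h correlated with r = 0.570 (Spearman's rho = 0.570), and with r = 0.687 without transverse 30 min B and longitudinal 30 min C. Genes of 1 library share its depth and composition, and whether devices of 1 letter were related across durations was not tested. The correlation thus describes these libraries and carries no p.

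The sign at 4 h matched that at 30 min for 69.5% of all genes. For the 718 genes with longitudinal values wholly above transverse ones at 30 min, 490 (68.3%) had the same sign at 4 h, and for the 391 wholly below, 289 (73.9%) did. These shares are close to that of all genes. Library scores on the first component of all 15 libraries (49.1% of the variance) ran from −4.13 to 20.3 for longitudinal and from −23.1 to 19.995 for transverse devices at 30 min, from 8.50 to 31.6 for longitudinal and from −16.9 to 2.33 for transverse devices at 4 h, and from −21.4 to −6.53 for the control. The axes were thus apart on that component at 4 h and overlapped at 30 min. Within each axis, devices A, B and C kept the same order on that component at both durations. The 4 h comparison is therefore not shown to be an independent repetition of the 30 min one.

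Immediate early factors had a median axis difference of 0.36 at 30 min and of 0.45 at 4 h. At 4 h, 28 of 30 were higher by value in longitudinal devices, against 48.2% of all genes, and 0 were called. Muscle ankyrin repeat, LIM and Z-disc load proteins had medians of 0.11 at 30 min and 0.48 at 4 h, SRF targets 0.27 and 0.48, and heat shock proteins 0.02 and 0.53. Over all genes the medians were 0.02 and −0.01. Rgs16, which led the 30 min comparison, was lower at 4 h on both axes, at 5.29, 6.21 and 6.05 FPKM in longitudinal devices and 3.41, 3.91 and 3.70 FPKM in transverse ones, and its axis difference was 0.55 (limma, adjusted p = 0.105).

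Whether the difference between the axes itself changed with duration was tested by the interaction. It called 1 gene of 12005, Gm8615, with 598 genes at an unadjusted p under 0.05. Without transverse 30 min A the interaction called 2. For Ptgs2 the axis difference was 0.55 at 30 min and 1.79 at 4 h, and the interaction of 1.24 had an adjusted p of 0.837 in limma. For Nppb the axis differences were 1.35 and 2.17, with an adjusted p of 0.930.

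**Figure D5:**
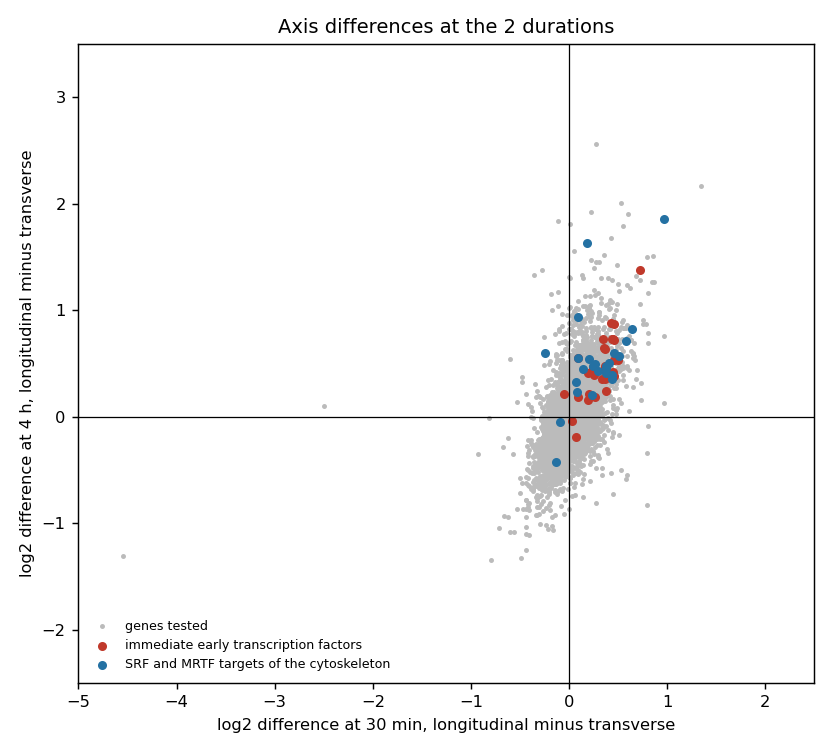
Log2 difference between the axes (longitudinal minus transverse) at 30 min on the horizontal axis and at 4 h on the vertical axis, for the 12005 genes tested (grey), immediate early transcription factors (red) and cytoskeletal SRF and MRTF targets (blue). Most coloured points lie in the upper right, above 0 at both durations.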

How the data were processed

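The authors deposited 1 table of 13657 genes with an FPKM value for each of the 15 libraries. Its headers name the libraries and not the unit, which rests on Cufflinks in the submitters' processing notes and on the values. Those notes name FastQC, TopHat 1.4.1, Cufflinks 2.0.2 and the mouse build mm9, with no role or order; how libraries were scaled to each other was not given in the sources used here. Per the labels' protocols, libraries were made from poly(A) RNA with an Illumina TruSeq kit, which does not mark strand. FPKM carries no counts, so the depth of a library is unknown and values have no counting intervals. Gene positions are the table's, in mm9, with 1 added to starts that count from 0. The table held 0 value columns of other series.

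limma 3.58.1 in R 4.3.3 (trend and robust options) was fitted to log2(FPKM + 1) with 5 group means over all 15 libraries, with two-sided tests and Benjamini-Hochberg adjustment over the 12005 genes tested. From the table, 152 small RNA entries were left out. A gene is called at an adjusted p under 0.05, and "apart" means that the 3 values of each group do not overlap. The fit was tested on simulated data in which genes varied independently of each other. The device differences that many genes share here were not part of that simulation. Adjusted p-values in the text are limma's.

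The genes and the 25 gene lists (19 of processes, 6 of cell type markers) were chosen with earlier results of these data known. Named genes are a fixed set of 21, the 8 per direction of smallest unadjusted p and the 5 per direction of largest difference among genes averaging at least 5 FPKM and apart, and up to 4 of smallest p in each list, and not all are described. Members named beyond that rule were chosen after their values were seen. Alternatives changed the libraries fitted, a replicate block, the pseudocount, the filter, the scaling, the small RNA entries and limma's options. Promoter windows are RefSeq's.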

Additional observations from a re-analysis of the deposited data

Results flagged for a closer look

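Gm8615 was the 1 gene whose difference between the axes was not the same at both durations by a test of the difference itself. Its interaction, the axis difference at 4 h minus that at 30 min, was 1.95 on the log2(FPKM + 1) scale (95% interval 1.60 to 2.30, limma adjusted p = 0.00032). At 30 min it stood at 2.66, 2.71 and 2.20 FPKM in longitudinal devices and at 2.77, 2.36 and 3.36 FPKM in transverse ones. At 4 h it stood at 2.95, 2.92 and 2.07 FPKM in longitudinal devices and at 0.0247, 0.0223 and 0 FPKM in transverse ones, with the control at 2.94, 3.71 and 3.37 FPKM. All 3 transverse devices at 4 h were at or near 0 and the other 12 libraries were above 2 FPKM.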

How the results depend on the processing

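The absence of calls between the axes at 30 min held under a pseudocount of 0.1, a filter of 5 FPKM, quantile normalization and plain limma options. The fit of only the groups compared called 1 gene (LOC100302567), no filter called 2, and keeping small RNA entries called 3 (Mir3100, Mir5132 and Snora5c); leaving out 1 library gave 0 to 1. At 4 h the main count of 1 was 2 without a filter, 0 at 5 FPKM, 2 after quantile normalization, 2 with small RNA entries, and 1 to 173 when 1 library was left out. The interaction count of 1 was 2 without a filter, 0 at 5 FPKM, 3 with small RNA entries, and 1 to 2 when 1 library was left out. The cause was not tested, except that a filter of 5 FPKM removes Gm8615. Transverse against control gave 33 genes, 21 with only the groups compared and 23 to 33 without 1 library, and longitudinal against control 50, and 34 to 65.

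Across the axes at 30 min, devices of the same letter did not deviate alike from their group means. Deviations correlated at 0.113 for A with A, −0.711 for B with B and −0.806 for C with C. Whether devices of 1 letter shared an isolation of hearts was not tested. Within an axis, A, B and C kept 1 order at both durations on the first component of all 15 libraries. Longitudinal scores were 0.658, −4.13 and 20.3 at 30 min and 15.2, 8.50 and 31.6 at 4 h. Transverse scores were −9.27, 19.995 and −23.1 at 30 min and −8.54, 2.33 and −16.9 at 4 h. Whether devices of 1 letter were related across durations was not tested. With a replicate block the counts were 0 between the axes at 30 min, 1 at 4 h, 1 for the interaction, 25 for transverse and 38 for longitudinal against control.

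Of 2532 values of 106 named genes under alternatives, 2520 kept their sign and side of the threshold and 1 became called. Many alternatives could not turn a sign, because they leave the values of the compared devices unchanged. Dusp1 stayed at 0.044 when a control or 4 h library was left out. It also did with a replicate block, other filters, small RNA entries kept, plain limma options or only the groups compared. The count of 2520 is therefore no measure of how stable the signs are. The 11 that turned sign belonged to 4 genes. Dusp1 was −0.012 after quantile normalization, −0.013 without transverse B and longitudinal C, and −0.046 to 0.12 when 1 library was left out (negative without transverse A or longitudinal C). Clk1 was −0.00934 after quantile normalization and −0.090 to 0.074 when 1 library was left out (negative without transverse B or longitudinal B). Rcan1 ran from −0.18 to 1.29 (negative without transverse C or longitudinal C) and Acta1 from −0.86 to 0.26 (positive without transverse B or longitudinal A). With 3 devices a group and the spread of transverse B and longitudinal C, differences of load genes are bounded only widely.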
